A study of Saccharomyces cerevisiae with 6 samples.

Results

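The 10 genes described here encode the proteins through which budding yeast senses glucose and represses other genes while glucose lasts: the sensors SNF3 and RGT2, the Rgt1 branch of MTH1, STD1 and RGT1, the repressors MIG1, MIG2 and MIG3, the kinase SNF1 and its antagonist REG1. They were taken by name from the probe-to-gene table. Each of the 10 was read by 1 probe set of its own, no probe set of several genes listed any of them, and all 10 passed the filter on low signals, among 5380 genes tested and 5656 genes with a probe set of their own. The arrays compared 3 RNA samples of a yeast strain with the histone H3 substitution K4,79R, in which lysines 4 and 79 are arginine, with 3 samples of a wild-type strain. Cells of both strains were grown in YPD, a rich medium with glucose, and were taken in mid-log phase (OD600 of 0.5 to 0.7). The strain background, any other allele and whether replicates were separate cultures are not given in the sources used here, so each p-value speaks for the spread of these samples alone, which may be technical.

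Yeast prefers glucose and keeps genes for other carbon sources off while it is present. Snf3 and Rgt2 are transporter-like proteins of the plasma membrane that bind external glucose and signal, through casein kinases and the Grr1 ubiquitin ligase, for the loss of Mth1 and Std1. Without these partners the repressor Rgt1 leaves the promoters of the hexose transporter (HXT) genes. In the other branch the kinase Snf1 is kept inactive in glucose by Reg1, which brings the phosphatase Glc7 to it, and the zinc finger repressor Mig1 then stays in the nucleus. In wild-type chromatin the methyltransferases Set1 and Dot1 mark lysines 4 and 79 of H3, and arginine does not take these marks.

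K4,79R array 1 stood apart. Its correlation across tested genes was 0.969 with K4,79R array 2 and 0.976 with array 3. Those arrays correlated at 0.990 with each other, and pairs of wild-type arrays at 0.984 to 0.993. The 3′ to 5′ signal ratio of the control gene ACT1, which reflects how intact the RNA is, was 1.00 on K4,79R array 1, while the other 5 arrays had 1.498 to 1.64. For SPT15 this ratio was 5.71, 2.79 and 3.35 on K4,79R arrays 1, 2 and 3, against 5.02 to 6.15 on the wild-type arrays. Results that depend on K4,79R array 1 are given below with and without it.

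None of the 10 regulators passed the test between K4,79R and wild-type cells, in either direction. The log2 changes, K4,79R minus wild type, ran from -0.23 for STD1 to 0.52 for MIG3, with 7 above and 3 below zero. For 9 of the 10 the 95% interval of the change lay within 2-fold either way, so changes larger than that lie outside those intervals. The interval of MIG3 ran from 1.03-fold to 2.00-fold. Changes are on the scale of log2(signal + 3.605), which understates them where the signal is low.

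The test was limma's moderated test over all 5380 genes with Benjamini-Hochberg adjustment and a threshold of 0.05. It called 4.26% of all tested genes, 2.81% higher and 1.45% lower, and 0 of the 10 regulators. At an unadjusted p under 0.05 there was 1 regulator, MIG3, against 22.2% of all tested genes. The median log2 change was 0.16 over the regulators and 0.04 over all tested genes, and the median absolute change was 0.17 and 0.21. The share of higher genes among all called genes, 65.9% as deposited, was 52.6% after division by a constant on each K4,79R array, 49.2% with quantile normalization and 43.6% with a common median. Each regulator kept the sign of its change under these scalings, and the median change of the regulators ranged over them from 0.06 to 0.16.

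**Figure D1:**
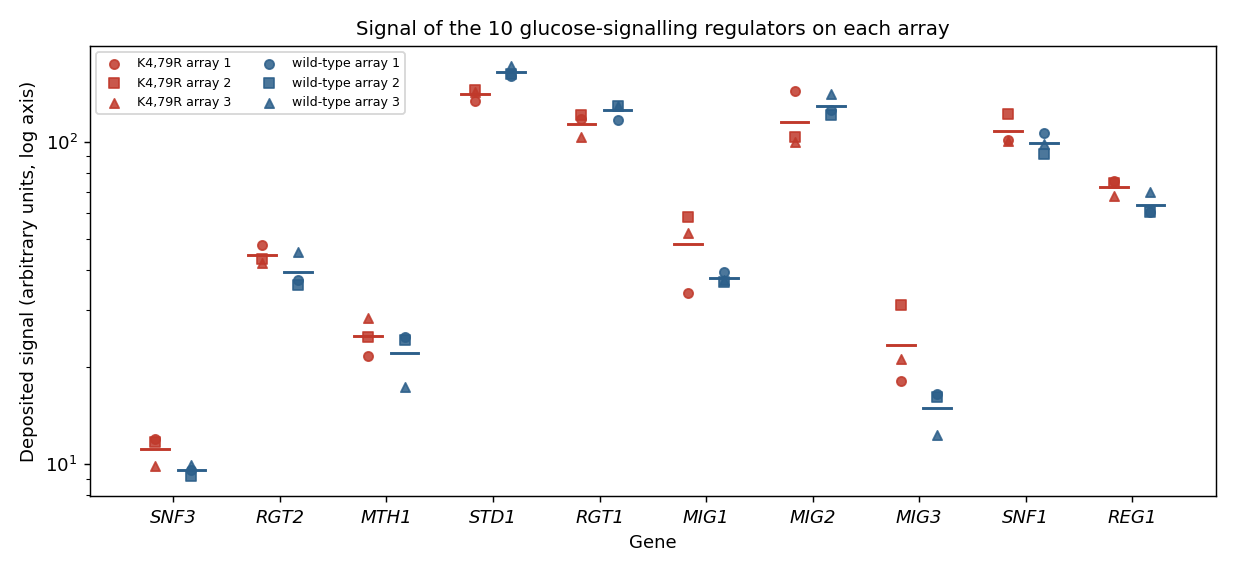
Deposited signal of each regulator (log axis, arbitrary units) on the 3 K4,79R arrays (left, red) and the 3 wild-type arrays (right, blue), with symbols for array numbers and bars for group means. The groups do not overlap for STD1, lower in K4,79R, and for MIG3, higher in K4,79R. K4,79R array 1 lies apart from the other K4,79R arrays for MIG1 and MIG2. Heights of different genes are not comparable, since each probe set has its own response.

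Neither sensor gene was called. SNF3 (YDL194W), the sensor known for its response to low glucose, had signals of 12.0, 11.7 and 9.84 on K4,79R arrays 1, 2 and 3, against 9.60, 9.20 and 9.90 on wild-type arrays 1, 2 and 3. These are low signals, and K4,79R array 3 lay within the wild-type range. The log2 change was 0.16 ± 0.14 (SE; limma adjusted p = 0.533). RGT2 (YDL138W), the sensor known for its response to high glucose, had signals of 48.0, 43.3 and 42.1 on the K4,79R arrays and 37.2, 35.9 and 45.5 on the wild-type arrays. Wild-type array 3 lay above K4,79R arrays 2 and 3, and the log2 change was 0.16 ± 0.15 (adjusted p = 0.564).

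MTH1 and STD1 encode related proteins that hold Rgt1 in its repressing form. MTH1 (YDR277C) had signals of 21.6, 24.8 and 28.3 on K4,79R arrays and 24.8, 24.2 and 17.4 on wild-type arrays, with overlapping ranges and the lowest value on wild-type array 3. Its log2 change was 0.15 ± 0.18 (adjusted p = 0.652), and 0.01 without wild-type array 3. STD1 (YOR047C) had signals of 134, 144 and 142 on K4,79R arrays and 159.5, 162 and 171 on wild-type arrays. All 3 K4,79R values lay below all 3 wild-type values, as they did for 12.2% of all tested genes. The log2 change of STD1 was -0.23 ± 0.10, with an adjusted p of 0.246 and a 95% interval from -0.46 to 0.01. It was the most evenly measured of the 10 genes, with a coefficient of variation of 3.96% among K4,79R arrays and 3.66% among wild-type arrays. RGT1 (YKL038W), the DNA-binding repressor itself, had signals of 117, 121 and 104 on K4,79R arrays and 116.5, 129 and 129 on wild-type arrays. The groups overlapped, and the log2 change was -0.13 ± 0.12 (adjusted p = 0.546).

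The MIG genes varied most among the K4,79R arrays, with coefficients of variation of 21.0% to 29.3%, against 3.96% to 13.5% for the other 7 regulators. MIG1 (YGL035C), the main repressor of genes for other sugars, had signals of 33.9, 58.4 and 52.2 on K4,79R arrays 1, 2 and 3, against 39.4, 36.6 and 37.1 on wild-type arrays. K4,79R array 1 lay below every wild-type array and K4,79R arrays 2 and 3 lay above every one. Over all arrays the log2 change of MIG1 was 0.29 ± 0.20 (adjusted p = 0.435). MIG2 (YGL209W), a relative of Mig1 with a similar zinc finger domain, had the reverse arrangement. Its signals were 143, 103 and 99.5 on K4,79R arrays 1, 2 and 3 and 125.2, 121 and 140.3 on wild-type arrays. Here K4,79R array 1 was the highest of all 6 arrays and K4,79R arrays 2 and 3 were the lowest. The log2 change of MIG2 was -0.17 ± 0.16 (adjusted p = 0.570).

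MIG3 (YER028C), which encodes a further zinc finger repressor of this family, had signals of 18.1, 31.2 and 21.1 on K4,79R arrays and 16.5, 16.1 and 12.3 on wild-type arrays. All K4,79R values lay above all wild-type values, as for 16.7% of all tested genes, and K4,79R array 2 stood well above the other K4,79R arrays. The log2 change of 0.52 ± 0.21 did not pass the test (adjusted p = 0.196), although it was the largest of the 10. STD1 and MIG3 were thus 2 of 10 regulators whose groups did not overlap, against 28.8% of all tested genes in either direction.

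Without K4,79R array 1, MIG1 and MIG3 passed the test, both higher in K4,79R cells. MIG1 then averaged 55.3 on K4,79R arrays 2 and 3, with a log2 change of 0.51 ± 0.12 (adjusted p = 0.0247, 1.42-fold). MIG3 then had a log2 change of 0.67 ± 0.19 (adjusted p = 0.0450, 1.59-fold), and MIG2 was at -0.33 ± 0.10 (adjusted p = 0.0584). In that comparison 16.1% of all tested genes were called higher and 4.83% lower, so 2 of 10 regulators called higher is close to the share of all genes. The 3′ to 5′ ratio of SPT15 divided the arrays in the same way as MIG1 and MIG2, with K4,79R array 1 near the wild-type arrays and K4,79R arrays 2 and 3 lower. That of ACT1 divided them otherwise, with K4,79R array 1 alone low at 1.00. K4,79R arrays 2 and 3 had ACT1 ratios of 1.55 and 1.498, near the wild-type arrays at 1.58 to 1.64. The part of either ratio in these values was not tested. With any other single array left out, none of the 10 genes was called.

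**Figure D2:**
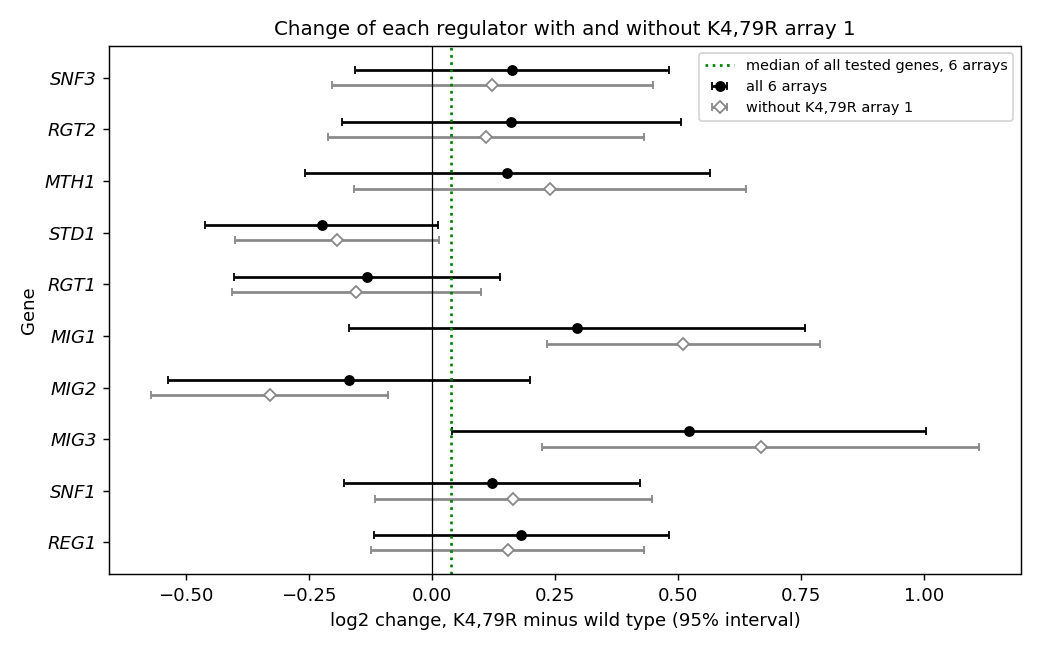
Log2 change of each regulator, K4,79R minus wild type, with its unadjusted 95% interval from limma, for all 6 arrays (filled circles) and without K4,79R array 1 (open diamonds). The dotted line is the median of all tested genes, 0.04. Leaving out that array moves MIG1 to 0.51, MIG3 to 0.67 and MIG2 to -0.33, while the other 7 genes stay between -0.19 and 0.24.

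SNF1 (YDR477W), the kinase whose activity lifts glucose repression, had signals of 101, 122 and 101 on K4,79R arrays and 107, 91.4 and 98.0 on wild-type arrays. The ranges overlapped, with only K4,79R array 2 above the wild-type range. The log2 change of SNF1 was 0.12 ± 0.13 (adjusted p = 0.625). REG1 (YDR028C) had signals of 75.4, 74.6 and 67.6 on K4,79R arrays and 60.6, 60.3 and 70.0 on wild-type arrays. Wild-type array 3 lay inside the K4,79R range, and the log2 change was 0.18 ± 0.13 (adjusted p = 0.457).

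In ratios between related regulators on the same array a factor common to that array largely cancels, though not fully at low signals, because the offset is added first. Of 5 pairs compared with an exact two-sided permutation test over 3 against 3 arrays, which cannot go below 0.1, none could pass a threshold of 0.05. The log2 ratio of RGT2 to SNF3 was 1.70 ± 0.08 (SD, n = 3) in K4,79R and 1.71 ± 0.14 in wild type, a difference of 0.00 (exact permutation p = 1). The ratio of REG1 to SNF1 was likewise within the spread, at -0.55 ± 0.14 in K4,79R and -0.61 ± 0.16 in wild type (exact permutation p = 0.6). The ratio of MTH1 to STD1 was -2.34 ± 0.13 in K4,79R and -2.72 ± 0.29 in wild type. It was higher on all 3 K4,79R arrays than on any wild-type array, with a difference of 0.38 at the smallest exact permutation p of 0.1 (0.5 adjusted over the 5 pairs). Without wild-type array 3 the difference was 0.21 (exact permutation p = 0.2).

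The ratio of MIG2 to MIG1 was 1.97, 0.79 and 0.89 on K4,79R arrays 1, 2 and 3, against 1.58, 1.63 and 1.82 on wild-type arrays. K4,79R array 1 was the highest of the 6 arrays and K4,79R arrays 2 and 3 the lowest. The difference of -0.46 had an exact permutation p of 0.4 (0.667 adjusted), and without K4,79R array 1 it was -0.84, at the smallest exact permutation p for 2 against 3 arrays, 0.1. The ratio of MIG3 to MIG1 differed less, at -0.93 ± 0.21 in K4,79R and -1.16 ± 0.17 in wild type (exact permutation p = 0.3).

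**Figure D3:**
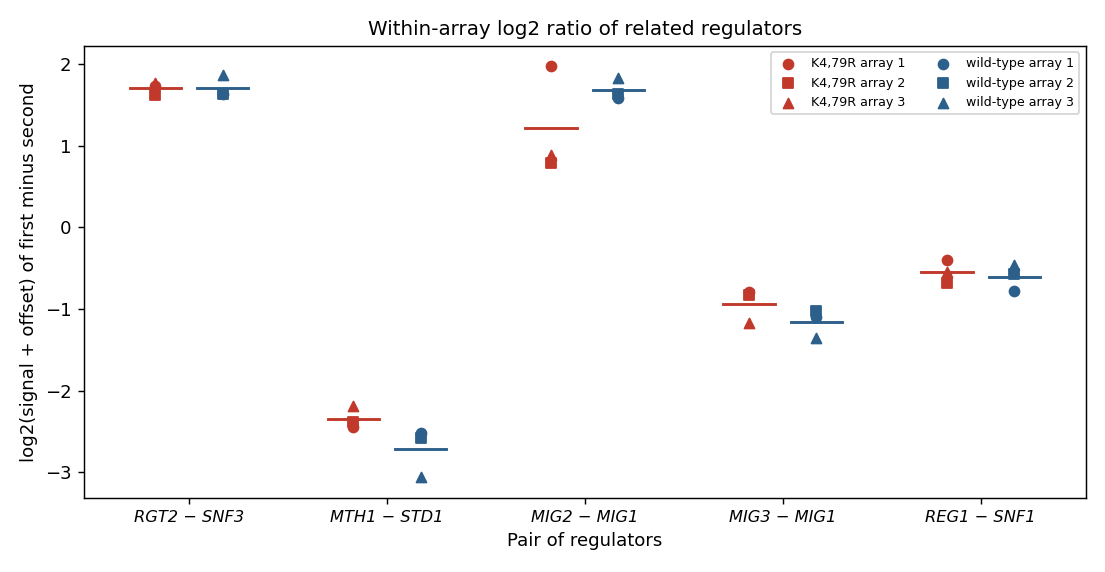
Difference of log2(signal + offset) between the first and the second gene of 5 pairs on each array, K4,79R left (red) and wild type right (blue), with bars for group means. MTH1 over STD1 is the only pair whose groups do not overlap, and MIG2 over MIG1 shows K4,79R array 1 at 1.97 and the other K4,79R arrays at 0.79 and 0.89.

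The other genes of the pathway were described in 8 lists, of which 71 of 74 genes were tested. CAT8 and GAL1 were below the filter, and MAL32 was not analysed here. Of the 71, 5 were called higher (7.04%) and 1 lower, against 2.81% and 1.45% of all tested genes. The median log2 change was 0.16 over the 71 genes.

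The steps that carry the signal contained few calls. Of 7 genes of the sensor relay, casein kinases and the Grr1 ubiquitin ligase, none was called with limma. An unadjusted p under 0.05 was found for 1 of them, CDC53 (0.27 ± 0.10, adjusted p = 0.180), where 22.2% of all tested genes had one. YCK2, a casein kinase gene, had the largest change at 0.41 ± 0.18 (adjusted p = 0.234), with 70.1, 113 and 99.8 on K4,79R arrays and 72.7, 68.3 and 65.7 on wild-type arrays. It passed without K4,79R array 1, at 0.60 (adjusted p = 0.0123), where 16.1% of all tested genes were called higher. Of 7 genes for the other Snf1 subunits and the kinases that activate Snf1, none was called and none had an unadjusted p under 0.05. The activating kinase gene ELM1 was at 0.41 ± 0.20 (adjusted p = 0.275), and at 0.60 without K4,79R array 1 (adjusted p = 0.0371). In that comparison 2 of these 7 genes were called higher and 1 lower, against 16.1% and 4.83% of all tested genes. None of 5 corepressor and hexokinase genes was called or had an unadjusted p under 0.05, with CYC8, which encodes the corepressor used by Mig1 and Rgt1, at -0.32 ± 0.23 (adjusted p = 0.451). CYC8 was low on K4,79R array 1 alone, and without that array its change was -0.04 (adjusted p = 0.819).

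Of 6 genes for the phosphatase Glc7 and its partners, 3 had an unadjusted p under 0.05, where 22.2% of all tested genes did. The groups did not overlap for 2 higher genes and 1 lower gene, against 16.7% and 12.2% of all tested genes. Without K4,79R array 1, 3 were called higher, where 16.1% of all tested genes were. With all arrays only SIP5 was called, and it rose (16.7% of the list, against 2.81% of all tested genes). Its product was found through binding to Snf1 and also binds Reg1. SIP5 had signals of 109.6, 105 and 114 on K4,79R arrays and 75.8, 71.8 and 64.6 on wild-type arrays, without overlap. The log2 change was 0.61 ± 0.12 (adjusted p = 0.0351, 1.52-fold). The call was kept without K4,79R array 1 and lost without any other single array (adjusted p = 0.0843 to 0.162) and with a common median (adjusted p = 0.0690). The probe sets of GLC7 itself differed over all arrays, at 0.05 ± 0.15 for the brightest and 0.52 ± 0.23 for another. Neither probe set passed when all probe sets were fitted with limma (adjusted p = 0.872 and 0.237).

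The HXT genes are the direct targets of Rgt1, and their changes ran in different directions. HXT1, which high glucose induces and which encodes a low-affinity transporter, fell: its signals were 246, 317 and 261 on K4,79R arrays and 514, 447.5 and 452.5 on wild-type arrays. The log2 change was -0.78 ± 0.13 (adjusted p = 0.0192, 0.583-fold). The call was lost without K4,79R array 3 (adjusted p = 0.0789) and without wild-type array 1, 2 or 3 (adjusted p = 0.0995, 0.103 and 0.0686). HXT3, another low-affinity transporter gene, had signals of 1974, 2078 and 2185 on K4,79R arrays and 1581, 1662 and 1783 on wild-type arrays. The groups did not overlap, in the direction opposite to HXT1, but the log2 change of 0.31 ± 0.11 did not pass (adjusted p = 0.161).

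HXT2, a transporter gene of higher affinity, was at -0.07 ± 0.12 (adjusted p = 0.794), with 997, 818 and 938 on K4,79R arrays and 892, 935 and 1051 on wild-type arrays. Its sign depended on which array was left out. HXT4 was at 0.54 ± 0.27 (adjusted p = 0.284), with 89.4, 167 and 150.4 on K4,79R arrays and 117, 91.6 and 65.5 on wild-type arrays. HXT4 again had K4,79R array 1 inside the wild-type range and the other K4,79R arrays above it. It passed without that array at 0.81 (adjusted p = 0.0340), where 16.1% of all tested genes were called higher.

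**Figure D4:**
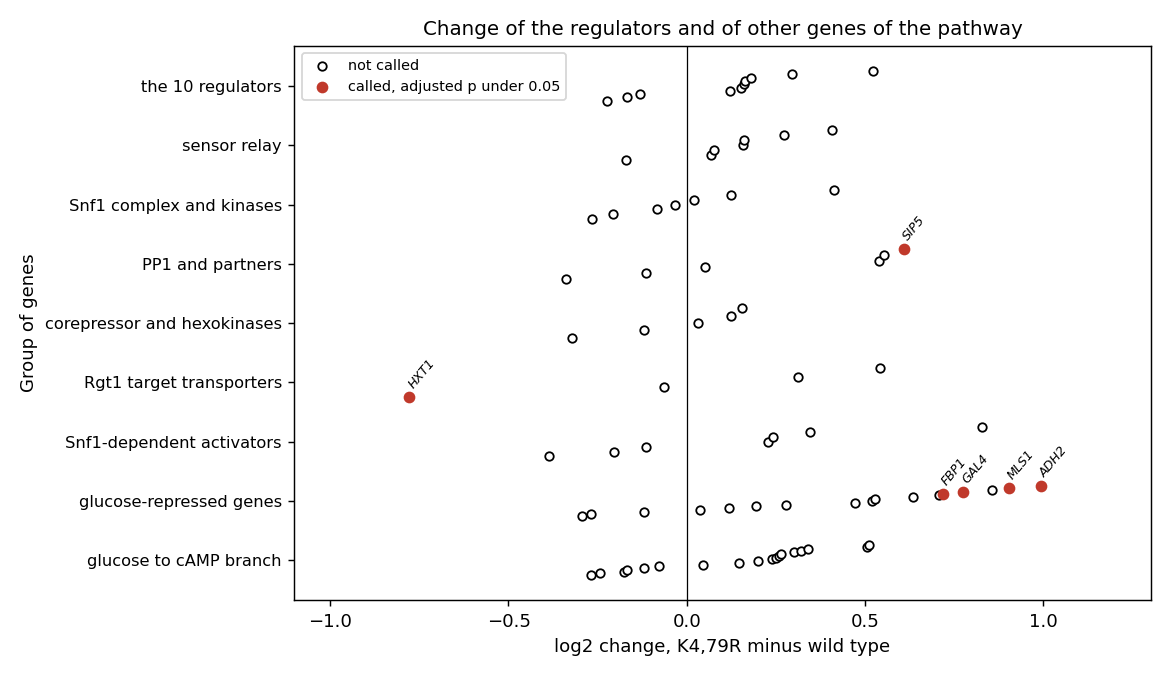
Log2 change, K4,79R minus wild type, of the 10 regulators and of the tested genes of 8 pathway lists, 1 point a gene, with genes called at an adjusted p under 0.05 filled and named. No regulator is filled, HXT1 is the only called gene below zero at -0.78, and 4 of the 5 called genes above zero are in the list of glucose-repressed genes.

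Among 7 tested genes for activators that work when Snf1 is active, none was called and 1 had an unadjusted p under 0.05, again beside 22.2% of all tested genes. This was ADR1, the activator of ADH2 and of genes for fatty acid oxidation, with signals of 18.7, 35.4 and 29.97 on K4,79R arrays and 13.7, 14.1 and 13.5 on wild-type arrays. Its groups did not overlap, and the log2 change was 0.83 ± 0.22 (adjusted p = 0.0768). It passed with quantile normalization (0.69, adjusted p = 0.0321), a common median (0.74, adjusted p = 0.02003), division by the constants (0.78, adjusted p = 0.0310) and without K4,79R array 1 (1.06, adjusted p = 0.00475). ADR1 did not pass without any other single array (limma adjusted p = 0.177 to 0.230). Nor did it pass with the replicate number as a block (adjusted p = 0.137) or with an offset of 1 or 16 (adjusted p = 0.0764 and 0.0793). With K4,79R array 1 left out, 3 of these 7 genes were called higher, against 16.1% of all tested genes.

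Of 17 tested genes that glucose represses, 4 rose (23.5%, against 2.81% of all tested genes) and none fell, with a median log2 change of 0.52. Of the 17, 11 had an unadjusted p under 0.05, where 22.2% of all tested genes did. The groups did not overlap for 9 higher and 2 lower genes, against 16.7% and 12.2% of all tested genes. The 2 lower genes, picked out after their values were seen, were the sucrose-cleaving invertase gene SUC2 (-0.29, adjusted p = 0.317) and MAL33 (-0.27, adjusted p = 0.336). Neither passed the test. The probe sets of SUC2, HXT6, HXT7 and MAL31 carry a suffix for probe sets that may also read other genes, and HXT7 is among the 9 higher genes. ADH2, an alcohol dehydrogenase gene for growth on ethanol, had signals of 353, 326 and 308 on K4,79R arrays and 146, 151 and 197.5 on wild-type arrays, a log2 change of 0.99 ± 0.14 (adjusted p = 0.0116). MLS1 (malate synthase) was at 0.90 ± 0.18 (adjusted p = 0.0375), FBP1 (fructose-1,6-bisphosphatase) at 0.72 ± 0.13 (adjusted p = 0.0268) and GAL4 (the activator of galactose genes) at 0.78 ± 0.17 (adjusted p = 0.0489). The signals of these 3 genes were low, with means between 16.03 and 31.0 in K4,79R and between 8.33 and 15.1 in wild type. ADH2 lost its call without wild-type array 1 or 2 (adjusted p = 0.0689 and 0.0999). MLS1, FBP1 and GAL4 kept theirs without K4,79R array 1 and lost them without any other single array (adjusted p = 0.0531 to 0.177). Of the 17 genes, 9 were called higher without K4,79R array 1, where 16.1% of all tested genes were.

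**Figure D5:**
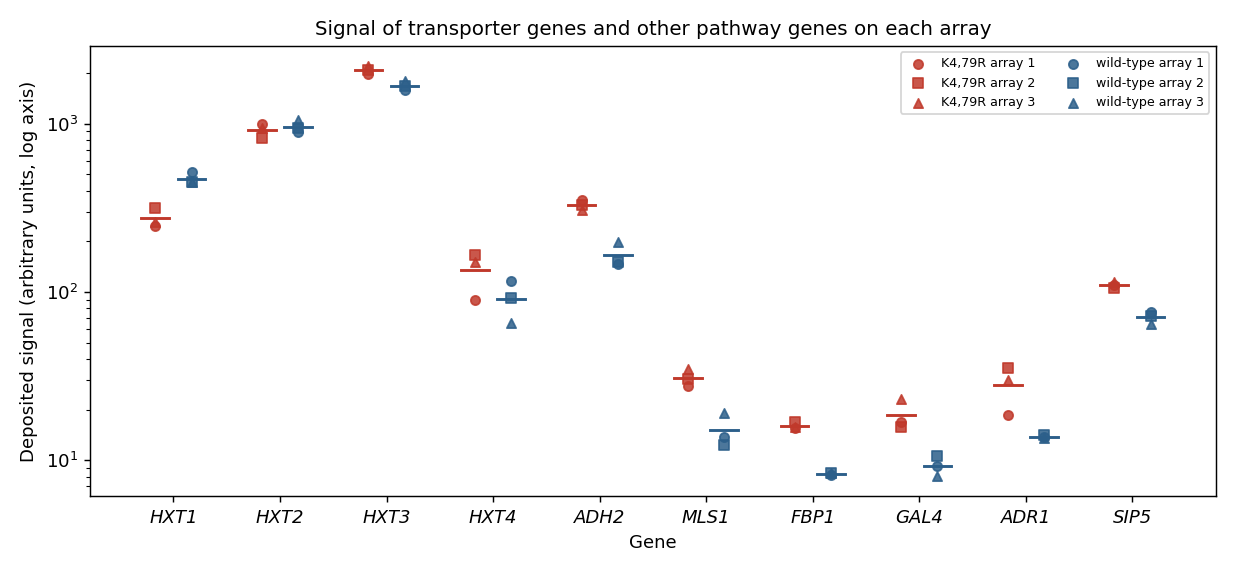
Deposited signal (log axis, arbitrary units) of the 4 HXT genes, of 4 called glucose-repressed genes, and of ADR1 and SIP5, on the K4,79R arrays (left, red) and wild-type arrays (right, blue), with bars for group means. HXT1 lies lower in K4,79R without overlap, ADH2 lies higher at 308 to 353 against 146 to 197.5, and HXT2 overlaps.

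The glucose to cAMP branch runs from the receptor Gpr1 and Ras to protein kinase A, in parallel with Snf3, Rgt2 and Snf1. None of its 18 tested genes was called with limma, and 5 had an unadjusted p under 0.05, a share near the 22.2% of all tested genes. Without K4,79R array 1, 5 of the 18 were called higher, where 16.1% of all tested genes were. With all arrays the largest change was that of RIM15. This gene encodes a kinase held in check by protein kinase A, and it was at 0.51 ± 0.15 (adjusted p = 0.103) when each gene was read from its brightest probe set. The probe sets of CYR1, the adenylate cyclase gene, disagreed in sign, from -0.18 for the brightest to 0.57, and none of them passed the test when all probe sets were fitted. The signals of RIM15 were 84.0, 84.3 and 66.5 on K4,79R arrays and 57.1, 47.0 and 57.1 on wild-type arrays, without overlap.

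MIG3 had the lowest unadjusted p of the regulators, and the 5 genes with the most similar pattern over the 6 arrays were KEL2 (Pearson r = 0.996), YBR138C (r = 0.995), PTC6 (r = 0.993), RTF1 (r = 0.991) and YGR130C (r = 0.989). Each had its highest signal on K4,79R array 2 and its lowest on wild-type array 3, as MIG3 did. That is little more than the likeness they were picked for. None of these 5 genes was called, and their log2 changes ran from 0.28 ± 0.15 for PTC6 to 0.89 ± 0.30 for RTF1. The 6 points share the 2 groups and the scale of each array, and 3.57% of all tested genes had an r above 0.9 with MIG3.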

How the data were processed

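The authors deposited linear intensity values, with 1 signal for each probe set on each array. MAS5, without a version, is named in the submitters' processing notes. Biotin-labelled cRNA was made from about 20 micrograms of total RNA, per the labels' protocols. Values on K4,79R arrays 1, 2 and 3 were multiples of 0.1 of a constant, 0.922, 1.09 and 1.11. Why these were applied is not stated in the sources used. Values were used as deposited. Of 9335 probe sets, 60 controls were left out; 6504 had 1 gene in the platform annotation, all matched to RefSeq R64 symbols, 328 had several and 2443 none. An offset of 3.605, 0.1 of the median of array medians, was added before log2. The dimmest 20% of probe sets by mean were dropped, and 7420 stayed. A gene was taken from its probe set with the highest mean.

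K4,79R minus wild type was fitted with limma 3.58.1 in R 4.3.3 (eBayes with intensity trend, two-sided, 4 residual degrees of freedom), checked on simulated data. Ratios were tested by exact permutation. The regulators, lists and tests were chosen with earlier results of these data known. Named genes are the 10 regulators, the HXT1 to HXT4 genes, the called genes and the gene with the largest change of each list, and the 5 genes most like the regulator with the lowest p. A few others, such as CDC53, are named beside them. Scaling, offset, filter, probe set rule, variance model, replicate block and single arrays were varied. The number of arrays limits the precision.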

Additional observations from a re-analysis of the deposited data

How the results depend on the processing

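All 10 regulators kept the sign of their change under each of 16 alternatives in which they were tested; without the lowest 40% of probe sets, SNF3 and MIG3 were not tested. The number of regulators called higher was 0 except without K4,79R array 1, where it was 2, MIG1 and MIG3; with 1 array left out it thus ranged from 0 to 2, and none was called lower. Pathway genes called higher, 5 with all arrays, ranged from 0 to 24 with 1 array left out, and those called lower, 1 with all arrays, from 0 to 2. The 24, of 71 tested, came without K4,79R array 1, where 864 of 5380 tested genes (16.1%) were called higher. Pathway genes called higher were 3 without the lowest 40% of probe sets, where FBP1 and GAL4 were not tested, and 2 were called lower with quantile normalization. With quantile normalization (adjusted p = 0.0509) and with no filter on low signals (adjusted p = 0.0528) GAL4 lost its call; the cause was not tested.

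The labels do not say whether replicate numbers shared by the groups pair the arrays. Deviations from the group means correlated at -0.15, 0.07 and -0.02 for same-numbered arrays, and no array correlated best with its own number. With 3 arrays in each group, these correlations cannot exclude a pairing. With the replicate number as a block, 18 genes were called higher and 6 lower in all, 0 of the regulators, and 0 pathway genes higher and 0 lower.

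The change of HXT2 turned its sign without K4,79R array 2 and without wild-type array 3, and ranged from -0.127 to 0.0148 with 1 array left out. The difference in the ratio of RGT2 to SNF3 turned with an offset of 16 (0.0388), and ranged from -0.0417 to 0.0768 with 1 array left out. That of REG1 to SNF1 turned without K4,79R array 1 and without wild-type array 1, and ranged from -0.0273 to 0.130.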

Other observations

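In the gene order of the RefSeq table for assembly R64, MIG2 lies next to SIP2 and MIG3 next to GAL83, and SIP2 and GAL83 encode alternative beta subunits of the Snf1 kinase. The log2 changes of these neighbours were -0.27 ± 0.19 (SE; limma adjusted p = 0.459) for SIP2 beside -0.17 ± 0.16 for MIG2, and -0.21 ± 0.25 (adjusted p = 0.671) for GAL83 beside 0.52 ± 0.21 for MIG3. Without K4,79R array 1, SIP2 was called lower at -0.45 (adjusted p = 0.0470), as were 4.83% of all tested genes. GAL83 was then at 0.08 (adjusted p = 0.742). Each regulator lay at least 52 protein-coding genes from the nearest chromosome end.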
